A study of Mus musculus with 6 samples.

Results

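RNA of 10 chromatin genes was followed in cultured cerebellar granule neurons (CGNs) given GSK-126, an inhibitor of the H3K27 methyltransferase EZH2. The genes were picked by symbol from the count tables: the H3K27 demethylases Kdm6a and Kdm6b, the H3K4 methyltransferases Kmt2a, Kmt2b, Kmt2c and Kmt2d (MLL1, MLL2, MLL3 and MLL4), the complex members Paxip1 and Ncoa6, and the acetyltransferases Crebbp (CBP) and Ep300 (p300). These 10 are among 55341 gene symbols in the tables, 16729 of which had enough counts to be tested, all 10 included. Granule neuron progenitors of wild-type CD-1 IGS mice at P6 to P8, both sexes together, were purified on Percoll and plated, the cultures received AraC at day in vitro 2 (DIV2) against dividing non-neuronal cells, and GSK-126 or the vehicle DMSO was added once at DIV3. RNA was collected at DIV5 and gave 3 DMSO and 3 GSK-126 libraries, each from the CGNs of pooled litters. The labels name the tissue as cerebellum, the time as day 3 and no dose, so a dose is not given here.

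Methylation of lysine 27 on histone H3 is written by Polycomb repressive complex 2 (PRC2) through EZH2 or EZH1 and accompanies silent promoters. The demethylases UTX (Kdm6a) and JMJD3 (Kdm6b) remove this mark, which clears the same lysine for acetylation by CBP and p300. UTX also sits in the MLL3 and MLL4 complexes with PTIP (Paxip1) and NCOA6, so that removal of H3K27 methylation and addition of H3K4 methylation at enhancers are joined in one complex, whereas MLL1 and MLL2 act in complexes of their own, MLL2 mainly at promoters that carry both marks. CGNs, the most numerous neurons of the cerebellum, mature over the weeks after birth, once they have stopped dividing.

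All 10 genes had a lower mean with GSK-126 than with DMSO, with fitted changes from -4.14% (Kdm6b) to -16.6% (Kdm6a), and the median log2 fold change of the 10 was -0.19, against -0.0071 over all tested genes. None of the 10 passed the test without regard to pairs (0 of 10 at an adjusted p under 0.05 by the quasi-likelihood test of edgeR, Benjamini-Hochberg adjusted over all tested genes, 0 at an unadjusted p under 0.05, and 0 by DESeq2). The share of all tested genes called in that edgeR fit was 0%, and 51.2% of them had a log2 fold change below 0. An unadjusted p under 0.05 was seen for 665 of 16729 tested genes, and DESeq2 called 21 of 29476 genes. Once the replicate number was kept as a block, Kmt2c fell, with a log2 fold change of -0.24 (standard error 0.075, edgeR, Benjamini-Hochberg adjusted p = 0.0496). Kmt2c was the sole member that passed with the block, in a fit that called 5.09% of tested genes lower and 8.44% in either direction. DESeq2 with the block called none of the 10 (Kmt2c at a Benjamini-Hochberg adjusted p of 0.0716), in a fit that called 951 of 29476 genes. Correcting the edgeR block fit for exon length and GC content also ended the call, with Kmt2c at -0.095 (Benjamini-Hochberg adjusted p = 0.392).

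Depth was not even over the libraries, with 7407189 to 13092763 counts on genes, and the members had between 326 (Paxip1) and 3094 (Kmt2c) counts in a library. Granule neuron markers were well expressed, with Zic1 at 1085 CPM or more in every library, but the cultures also held RNA of other cells. The summed CPM of 10 granule neuron markers was 4721 to 7596 with DMSO and 3681 to 5954 with GSK-126, lower with GSK-126 in each pair. All 10 of those markers had a log2 fold change below 0 and 7 fell in the block fit (edgeR, Benjamini-Hochberg adjusted p under 0.05). The summed level of 7 microglia or macrophage markers went the other way, with 161 to 357 CPM against 231 to 415, and that of 5 fibroblast markers was 4741 to 6477 against 5753 to 7037. The 8 markers of astrocytes or Bergmann glia summed to 2499 to 7347 against 2312 to 7694, the 7 of the oligodendrocyte lineage to 414 to 761 against 487 to 764, and the 5 of GABAergic interneurons to 144 to 168 against 119 to 141. Those of Purkinje cells (43.2 to 67.9 against 57.6 to 66.4), endothelial or mural cells (430 to 731 against 650 to 899) and progenitors (370 to 470 against 410 to 525) completed the lists. No listed marker was at 0 in all libraries, but some were near it. Atoh1 (0.75 CPM or less) and Gli1 were too low to be tested. The progenitor sum came almost wholly from Mki67, Top2a, Ccnd1 and Barhl1. Itpr1 (30.0 to 52.0 CPM) was most of the Purkinje sum, with Pcp2 at 2.61 CPM or less. Acta2 and Pdgfrb were most of the endothelial or mural sum, with Cldn5 at 0.91 CPM or less. The Purkinje and progenitor sums therefore do not show that those cells were present, and the endothelial or mural sum does not show endothelial cells. Rgs5, also in that list, was at 18.9 to 66.0 CPM, and the presence of mural cells was not tested. The GABAergic sum was lower with GSK-126 in each pair. Those of microglia, fibroblasts, endothelial or mural cells, the oligodendrocyte lineage and progenitors were higher in each pair. In the block fit 2 GABAergic markers (Gad1 and Gad2) fell. In that fit 2 microglia, 2 astrocyte (S100b and Gdf10), 2 endothelial or mural, 1 oligodendrocyte, 1 progenitor and 1 fibroblast marker rose. Of the 8 astrocyte markers, 4 (Aqp4, Slc1a3, Slc1a2 and Gja1) had a log2 fold change below 0. The astrocyte sum was higher with GSK-126 in pair 1 and lower in pairs 2 and 3. The part of these levels in the values of the 10 genes was not tested, and in bulk RNA fewer cells of a type and less RNA per cell cannot be told apart.

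**Figure D1:**
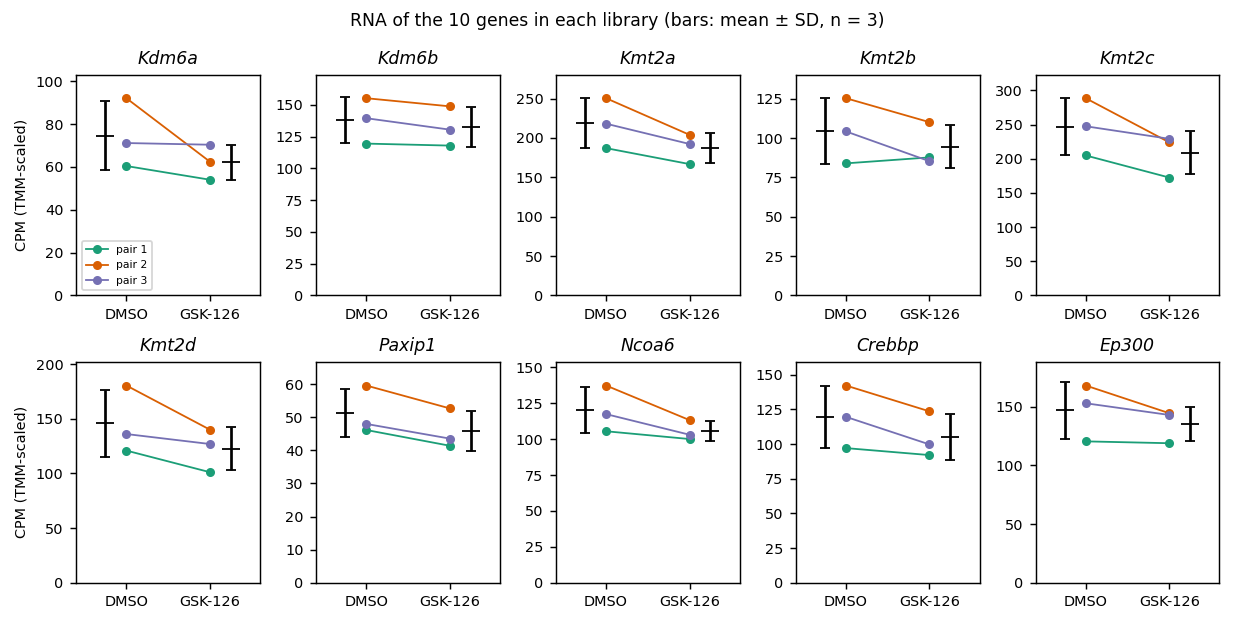
CPM of each of the 10 genes (vertical axes, from 0, one panel per gene) in the 3 DMSO and 3 GSK-126 libraries. Lines join libraries with the same replicate number and black bars give mean ± SD (n = 3). DMSO replicate 2 is the highest of the 6 libraries in all 10 panels, and 29 of the 30 lines go down.

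The levels are CPM, each gene's counts relative to the library total scaled by edgeR's TMM factor. Kdm6a, the X-linked demethylase, had 60.4, 92.1 and 71.2 CPM in DMSO replicates 1, 2 and 3, and 54.0, 62.5 and 70.4 CPM in the GSK-126 libraries of the same numbers. Its difference lay mostly in pair 2, where log2 CPM was lower by 0.56, against 0.16 in pair 1 and 0.016 in pair 3, and the groups overlapped. On the log2 scale the fitted change was -0.26 (standard error 0.18), or -16.6% with a 95% interval from -37.6% to 11.5%. Keeping the block gave -0.25 (edgeR, Benjamini-Hochberg adjusted p = 0.159), and -0.086 once pair 2 was left out. Without the block, Kdm6a was at -0.078 when DMSO replicate 2 was left out. Kdm6a is the member of the 10 with the largest decrease, and its promoter is shown with that of Kmt2c further on.

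Kdm6a escapes X inactivation and has a paralog on the Y chromosome, Uty, so the make-up of the pooled litters was read beside it. Uty stood at 15.7, 38.1 and 18.2 CPM in the DMSO cultures and at 14.0, 31.1 and 17.0 CPM under GSK-126. Replicate 2 stood apart in both groups. The summed CPM of 4 Y-linked genes was 221 and 178 there, and between 87.3 and 115 in the other libraries, while Xist had 758 and 726 CPM against 1130 to 1286. Added together, Kdm6a and Uty stood at 76.1, 130.2 and 89.3 CPM in the DMSO cultures and at 68.1, 93.6 and 87.4 CPM under GSK-126, so the sum kept the same pattern, with pair 2 far apart and pair 3 close. The part of the litters' sex in the Kdm6a values was not tested.

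Kdm6b, the second demethylase, moved least among the 10. It stood at 119.5, 155.2 and 139.5 CPM in the DMSO cultures and at 117.9, 148.8 and 130.5 CPM under GSK-126, slightly lower in every pair. The log2 fold change was -0.061 (standard error 0.15), with a 95% interval of the change from -24.1% to 21%. With the block the interval narrowed to -13.9% to 7.12%. Of its exons, 286 bp overlap Kdm6bos on the opposite strand, itself at 18.8 ± 6.36 CPM (SD, n = 3) and 14.4 ± 0.565 CPM (SD, n = 3) in the DMSO and GSK-126 cultures. Since the strand setting of the counting is not stated, reads in that stretch cannot be given to one gene or the other.

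The pair of KMT2 genes that work with UTX ran in parallel. Kmt2c, the gene of MLL3, stood at 204.7, 288.5 and 247.4 CPM in the DMSO cultures and at 172.4, 223.9 and 229.1 CPM under GSK-126. Kmt2d, the gene of MLL4, stood at 120.9, 180.4 and 136.0 CPM in the DMSO cultures and at 101.1, 140.0 and 126.9 CPM under GSK-126. For both genes the group ranges overlapped, since DMSO replicate 1 lay below GSK-126 replicates 2 and 3. Without the block the log2 fold changes were -0.24 (standard error 0.17) for Kmt2c and -0.25 (standard error 0.19) for Kmt2d. With the block the change of Kmt2c was -15.4% (95% interval -24.1% to -5.80%) and that of Kmt2d was -15.5% (95% interval -24.7% to -5.18%), at an adjusted p of 0.0496 and 0.0663 (edgeR, Benjamini-Hochberg). The call of Kmt2c therefore does not set it apart from Kmt2d. It was lost without pair 1 (adjusted p = 0.233) or pair 2 (adjusted p = 0.219, edgeR, Benjamini-Hochberg). Without pair 3 both Kmt2c (-0.31, edgeR, Benjamini-Hochberg adjusted p = 0.0417) and Kdm6a (-0.36, adjusted p = 0.0450) passed, beside 1277 of 16898 tested genes. Gm42585, whose exons share 274 bp with those of Kmt2c on the opposite strand, had 7.49 ± 2.91 CPM and 5.61 ± 1.84 CPM (SD, n = 3 each), in the DMSO and GSK-126 cultures.

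Kmt2a, the gene of MLL1, stood at 187.1, 250.5 and 218.1 CPM in the DMSO cultures and at 166.8, 204.0 and 192.3 CPM under GSK-126. The fitted change was -0.22 on the log2 scale (standard error 0.15), and -0.21 in the block fit (edgeR, Benjamini-Hochberg adjusted p = 0.0771). Kmt2a was lower in every pair, and 378 bp of its exons overlap another gene, AC061963.1, at 2.90 ± 0.625 and 2.28 ± 0.482 CPM (SD, n = 3 each). Kmt2b, the gene of MLL2, stood at 84.0, 125.4 and 104.3 CPM in the DMSO cultures and at 87.8, 110.2 and 85.4 CPM under GSK-126. It was the exception among the 10, higher with GSK-126 in pair 1 by 0.064 on the log2 scale and lower in the others. Its log2 fold change of -0.15 (standard error 0.18) turned to 0.0068 without DMSO replicate 2.

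The complex members were lower with GSK-126 as well. Paxip1, which encodes the BRCT-domain protein PTIP, stood at 46.1, 59.6 and 48.0 CPM in the DMSO cultures and 41.4, 52.7 and 43.5 CPM under GSK-126. Ncoa6, a nuclear receptor coactivator of the MLL3 and MLL4 complexes, stood at 105.5, 137.4 and 117.5 CPM in the DMSO cultures and at 100.1, 113.3 and 103.1 CPM under GSK-126. Each was lower in every pair, and in each the groups overlapped. The log2 fold changes were -0.16 (standard error 0.16) for Paxip1 and -0.19 (standard error 0.13) for Ncoa6, and with the block the adjusted p was 0.383 and 0.185 (edgeR, Benjamini-Hochberg).

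The acetyltransferases followed the same course. Crebbp stood at 97.1, 142.3 and 119.7 CPM in the DMSO cultures and at 92.1, 123.6 and 99.8 CPM under GSK-126. Ep300 stood at 120.4, 168.0 and 152.9 CPM in the DMSO cultures and at 118.8, 144.4 and 142.9 CPM under GSK-126. Both were lower in every pair, with pair 1 nearly level for Ep300. The log2 fold changes were -0.19 (standard error 0.18) for Crebbp and -0.12 (standard error 0.16) for Ep300, and -0.18 and -0.11 in the block fit (edgeR, Benjamini-Hochberg adjusted p = 0.187 and 0.433). Within Ep300, 54 bp are shared with Gm23880 on the same strand.

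Over the 10 genes and 3 pairs, 29 of 30 differences were below 0. The pair medians were -0.12, -0.25 and -0.13 on the log2 scale, while those of all tested genes were 0.00013, -0.026 and -0.0075. Of the 10 genes, 9 were lower in all 3 pairs, a pattern seen in 22.7% of tested genes. The groups did not overlap in the lower direction for 0 of the 10, against 4.72% of tested genes. With the block, 6 of the 10 (Kdm6a, Kmt2a, Kmt2c, Kmt2d, Ncoa6 and Crebbp) were lower at an unadjusted p under 0.05 (edgeR), beside 12.1% of tested genes. These shares are over tested genes of all lengths. Once exon length and GC content were corrected for in the block fit, 0 of the 10 were lower at that threshold. In that fit 3671 of 16697 tested genes were at an unadjusted p under 0.05 in either direction. The genes are not replicates of one another, because they were read in the same 6 libraries.

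The replicates fell in nearly the same order for all 10 genes. DMSO replicate 2 was the highest of the 6 libraries for 10 of 10 members, and GSK-126 replicate 1 was the lowest for 9 of 10, with Kmt2b lowest in DMSO replicate 1. The same libraries had the highest and the lowest summed level of granule neuron markers, 7596 and 3681 CPM. How many of all tested genes share these extremes was not counted, so the order is not shown to be particular to the 10. Leaving out DMSO replicate 2 moved the median log2 fold change of the 10 from -0.19 to -0.053, with 8 of 10 below 0, and leaving out GSK-126 replicate 1 moved it to -0.097, with 9 of 10 below 0. Without DMSO replicate 1 it was -0.28. Over the 45 gene pairs, Pearson's r of log2 CPM in the 6 libraries had a median of 0.91 and ranged from 0.71 (Kdm6a with Kmt2b) to 0.98 (Kmt2a with Kmt2d), as a description of libraries that share replicates and scaling.

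**Figure D2:**
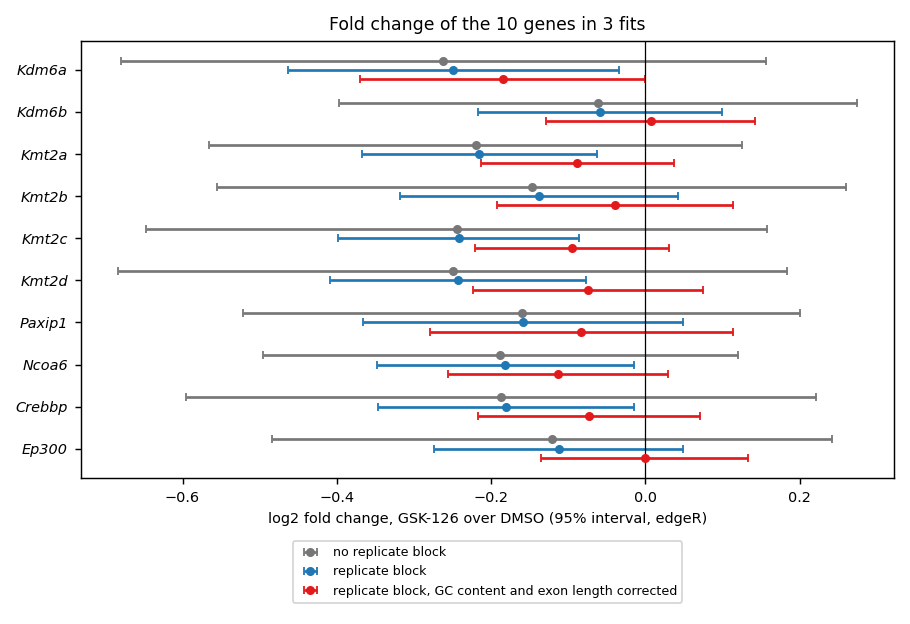
Log2 fold change of GSK-126 over DMSO for each gene (points) with 95% intervals (bars) in edgeR fits without a replicate block, with the block, and with the block and a length and GC correction. The block narrows the intervals and leaves the points nearly in place, whereas the correction moves every point up, Kdm6b past 0 and Kdm6a to -0.18.

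Transcript length moved with the result. The 10 genes have 6954 bp (Kdm6b) to 20291 bp (Kmt2c) of annotated exon, and 8 of them are in the longest decile of tested genes (9553 bp and over). Across all tested genes the median log2 fold change declined from 0.066 in the shortest decile to -0.12 in the longest, and in the longest decile the pair medians were -0.068, -0.21 and -0.062. Spearman's rho between log2 fold change and exon length was -0.18 over 16697 genes, which are not independent replicates. Deciles match length only coarsely, since the longest spans 9553 to 123179 bp, and Kmt2c and Kmt2d exceed 99.4% and 99.3% of tested genes. By definition, as many tested genes lie below a decile median as above it. Each of the 10 was below the median of its own decile without the block, and 9 of 10 with it, Ep300 being level with its decile at -0.11 against -0.12. When exon length and GC content were corrected for in the block fit, 0 of the 10 passed (9.28% of tested genes did), 9 of 10 stayed below 0 (49.4% of tested genes) and their median was -0.079. Kdm6a kept the lowest value, -0.18, while Kmt2c was at -0.095, Kmt2d at -0.075, Kmt2a at -0.088 and Ncoa6 at -0.11. Kdm6b turned to 0.0069, and Ep300 was at -0.00097. In the corrected fit the 95% interval for Kmt2c was -14.2% to 2.16%, and the part of length in these values was not tested otherwise.

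**Figure D3:**
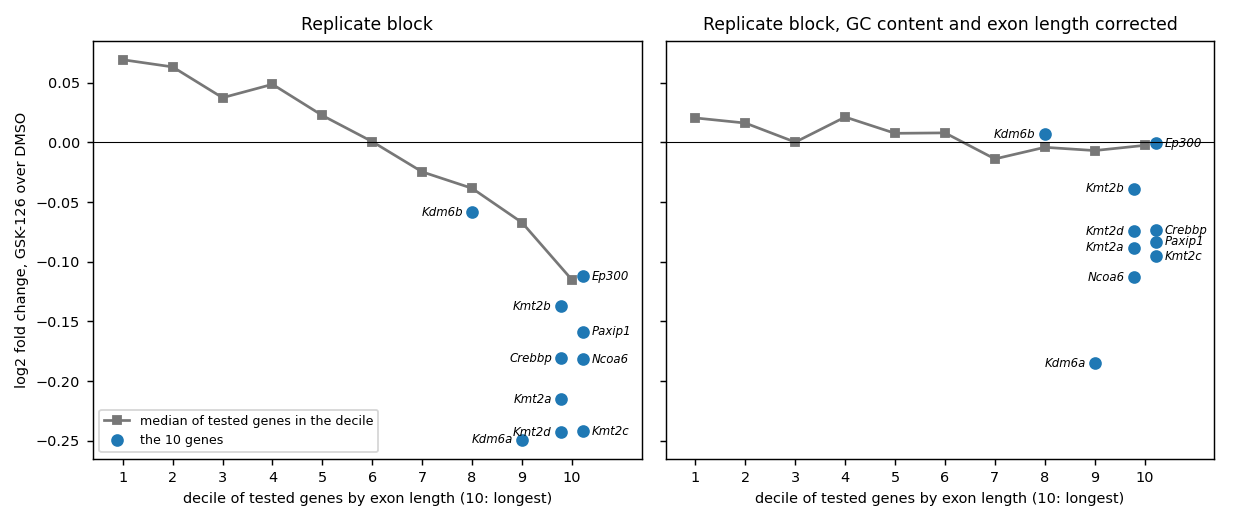
Median log2 fold change of tested genes (grey squares) in each decile of exon length, with the 10 genes (blue) placed in their own decile and shifted sideways in the longest decile to keep labels apart. Left, the fit with the replicate block, where the medians go from 0.069 to -0.12. Right, the same fit corrected for GC content and exon length, where the medians lie near 0 and 8 of 10 genes lie below the median of their decile.

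Ratios within a library need no scaling between libraries, and were used to compare paralogs. Kmt2d counts were 0.590, 0.625 and 0.550 of Kmt2c counts in the DMSO libraries and 0.586, 0.625 and 0.554 in the GSK-126 libraries. The ratio was nearly the same in both libraries of a pair and varied more from pair to pair, with a group difference of 0.00030 on the log2 scale (exact permutation test, two-sided, p = 1, n = 3 each). The pair differences of -0.0099, -0.00024 and 0.011 lay well inside the counting error of about 0.072 for one pair. Kmt2c and Kmt2d are also the longest of the 10, with exons of 20291 and 19931 bp.

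The ratio of Kdm6b to Kdm6a had a geometric mean of 1.87 with DMSO and 2.13 with GSK-126. It was higher with GSK-126 in pairs 1 and 2 (0.14 and 0.50 on the log2 scale) and lower in pair 3 (-0.080), so the direction was not shared by the cultures (exact permutation test, two-sided, p = 0.3, adjusted over 5 ratios 0.75, n = 3 each). Ep300 to Crebbp went from 1.23 to 1.29 and Kmt2b to Kmt2a from 0.475 to 0.501 (exact permutation p = 0.6 and 0.5, n = 3 each, adjusted 0.75 for both). The smallest p that 3 against 3 libraries allow is 0.1. Erasers were set against writers as Kdm6a and Kdm6b together over Ezh1 and Ezh2 together, which gave 2.83 with DMSO and 2.75 with GSK-126 (log2 difference -0.045, exact permutation p = 0.6, n = 3 each, adjusted 0.75). It was lower in every pair, with differences of -0.017, -0.061 and -0.056 on the log2 scale, and the exact sign-flip test within pairs gave p = 0.25, the smallest that 3 pairs allow. In this ratio replicate 1 stood apart, at 2.24 and 2.22 against 2.98 to 3.26 elsewhere. Ezh1 itself had 38.2 ± 4.57 and 37.3 ± 1.31 CPM and Ezh2 36.5 ± 6.97 and 33.6 ± 7.82 CPM (SD, n = 3 each), each with an interval that spans 0.

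**Figure D4:**
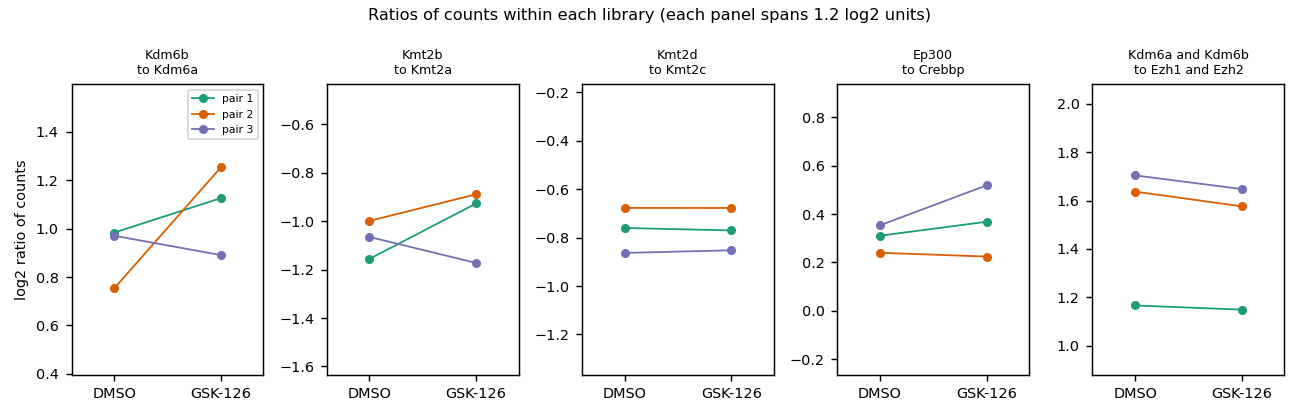
Log2 ratio of counts within each library for 4 paralog ratios and for summed H3K27 demethylases over summed Ezh1 and Ezh2, with lines joining replicate numbers. Every panel spans the same width in log2 units. Kmt2d to Kmt2c runs level in all 3 pairs, and Kdm6b to Kdm6a goes up in pairs 1 and 2 and down in pair 3.

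Per kilobase of exon, Kdm6b was the most abundant of the 10, with a mean of 19.4 CPM per kb over the 6 libraries (17.0 to 22.3), above the range of every other member. Kmt2a (12.2), Ncoa6 (11.6), Kmt2c (11.2) and Kmt2b (10.4 CPM per kb) came next, and neighbours in this order overlapped. Ncoa6 was above Kmt2c in 3 of 6 libraries, so their order is not settled. Ep300 (9.90 CPM per kb) was above Crebbp (8.30) in 6 of 6 libraries, Crebbp was above Kdm6a (8.16) in 3 of 6, and Kdm6a was above Kmt2d (6.73) in 6 of 6. Paxip1 was last at 4.73 CPM per kb, below Kmt2d in every library. These levels, and with them the order given, use the merged exons of all transcripts and would understate a gene whose main transcript is short. The longest annotated transcript of Paxip1, for one, has 5850 bp against 10271 bp of merged exon, and that of Kmt2d 19823 against 19931 bp. The order of genes such as these can therefore change with the length used.

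The tables carry GENCODE symbols, and the GENCODE annotation of GRCm38 places Kdm6a (ENSMUSG00000037369.17) on chromosome X from 18162575 to 18279936 and Kdm6b (ENSMUSG00000018476.7) on chromosome 11 from 69398508 to 69413675. The MLL3 and MLL4 genes lie on chromosome 5 from 25271798 to 25498783 (Kmt2c, ENSMUSG00000038056.15) and chromosome 15 from 98831669 to 98871204 (Kmt2d, ENSMUSG00000048154.17). Chromosome 15 also holds Ep300 (ENSMUSG00000055024.12) from 81585351 to 81652077, and Crebbp (ENSMUSG00000022521.10) is on chromosome 16 from 4081328 to 4213997. Kmt2a (ENSMUSG00000002028.13) is on chromosome 9 from 44803355 to 44881296, Kmt2b (ENSMUSG00000006307.16) on chromosome 7 from 30568858 to 30588726, Paxip1 (ENSMUSG00000002221.11) on chromosome 5 from 27740080 to 27791691 and Ncoa6 (ENSMUSG00000038369.14) on chromosome 2 from 155390656 to 155473894.

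RefSeq promoters (GRCm38.p6, windows of 300 bases around a gene's start) were matched for 8 of the 10, without Kdm6b and Kmt2b. They held 1 (Ncoa6) to 56 (Kmt2c) CpG dinucleotides with a median of 29, against a median of 20 over 11625 promoters of tested genes and 7 over all 27025. The windows of Ncoa6, Crebbp and Ep300 lie wholly inside the genes as GENCODE draws them. That of Ncoa6 lies farthest in, at 155440734 to 155441033 on the minus strand, while GENCODE puts the gene's 5′ end at 155473894. The lowest CpG count, the lack of a GC box and the sole CCAAT box all come from this window. The GC box (GGGCGG, either strand) was present in 7 of 8, against 62.5% of promoters of tested genes and 35.9% of all promoters, and the CCAAT box (CCAAT, either strand) in 1 of 8, that of Ncoa6, against 38.4% and 37.9%. The ETS core (CCGGAAG) and the cAMP response element (TGACGTCA) that binds CREB, the partner of CBP, were found in 0 of 8 windows, beside 16.7% and 3.14% of promoters of tested genes and 9.12% and 1.88% of all promoters. Given here 5′ to 3′ are the window of Kmt2c, the member that passed with the block and the one with most CpGs, at chr5:25498734-25499033 on the minus strand, and that of Kdm6a, the member with the largest decrease, at chrX:18162325-18162624 on the plus strand. Capitals mark GC boxes on either strand, some of which overlap one another, 12 in Kmt2c and 1 in Kdm6a, and a match is a run of letters and not a measured site.
Kmt2c: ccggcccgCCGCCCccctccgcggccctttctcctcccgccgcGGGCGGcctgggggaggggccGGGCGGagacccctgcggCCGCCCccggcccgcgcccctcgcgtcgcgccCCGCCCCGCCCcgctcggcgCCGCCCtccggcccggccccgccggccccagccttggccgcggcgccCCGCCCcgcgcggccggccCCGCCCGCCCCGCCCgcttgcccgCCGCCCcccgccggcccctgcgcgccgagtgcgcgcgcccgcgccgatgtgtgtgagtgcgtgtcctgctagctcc
Kdm6a: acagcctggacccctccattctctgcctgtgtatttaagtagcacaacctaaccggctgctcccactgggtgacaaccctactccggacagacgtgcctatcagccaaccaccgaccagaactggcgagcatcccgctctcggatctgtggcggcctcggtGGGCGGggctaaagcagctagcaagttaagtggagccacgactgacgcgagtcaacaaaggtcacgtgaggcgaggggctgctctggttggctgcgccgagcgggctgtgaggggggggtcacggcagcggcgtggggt
The windows of Kmt2c and Kdm6a hold 88.0% and 63.0% GC, and the log2 fold changes of the genes were -0.24 and -0.26.

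Other genes that write, remove or read these marks were taken from 10 lists with 51 genes, 49 of them tested. Of the 49, 42 had a log2 fold change below 0 and 7 above, with a median of -0.12, and 0 passed without the block (edgeR, Benjamini-Hochberg). With the block 2 fell and 0 rose, beside the 5.09% of tested genes that fell. Kdm7a, a demethylase of H3K9 and H3K27, stood at 92.1, 145.5 and 105.8 CPM in the DMSO cultures and at 72.7, 98.2 and 82.5 CPM under GSK-126. It fell by 0.42 on the log2 scale in the block fit (standard error 0.083, edgeR, Benjamini-Hochberg adjusted p = 0.00237), it passed after the length correction too (-0.33, adjusted p = 0.00454), and 287 bp of its exons are shared with 4930599N23Rik on the opposite strand. Psip1, which tethers the MLL1 complex to chromatin as LEDGF, stood at 292.2, 387.5 and 301.6 CPM in the DMSO cultures and at 246.9, 330.7 and 249.4 CPM under GSK-126. Psip1 fell by 0.25 in the block fit (standard error 0.069, edgeR, Benjamini-Hochberg adjusted p = 0.0291) and by 0.23 after correction (adjusted p = 0.0154), with 483 bp shared with Snapc3 on the opposite strand. The call of Psip1 was lost without pair 1 or pair 3 (adjusted p = 0.173 and 0.144), while Kdm7a passed with any one pair left out. Kdm7a and Psip1 were thus at values near or beyond those of Kdm6a and Kmt2c.

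By list, the fit without the block gave 3 of 4 tested core subunits and partners of the KMT2 complexes (Wdr5, Rbbp5, Ash2l and Dpy30, Pagr1a not being tested) below 0, with a median of -0.039, closer to 0 than the 4 enzymes. In the block fit with the length correction the core was at a median of -0.061, within the -0.039 (Kmt2b) to -0.095 (Kmt2c) of the enzymes. MLL1 and MLL2 partners had a median of -0.24 over 3 tested genes, Men1 not being tested, and SET1 complex genes -0.13 over 5. Pagr1a and Men1 were at 0 CPM in every library, and the reason was not tested. Among demethylases, 5 of 5 that act on H3K4 and 8 of 8 other JmjC enzymes were below 0, with medians of -0.12 and -0.18. PRC2 core genes had a median of -0.077 (3 of 4 below 0) and other lysine acetyltransferases -0.054 (5 of 7). The class I deacetylases (-0.086, 4 of 4), BET readers (-0.088, 3 of 3) and CREB partners of CBP (-0.15, 5 of 6) completed the lists. In the corrected block fit, MLL1 and MLL2 partners had a median of -0.17, SET1 genes -0.090 and H3K4 demethylases -0.082. Other JmjC enzymes were at -0.088, PRC2 core genes at -0.042 and other acetyltransferases at -0.096. Class I deacetylases were at -0.097, BET readers at -0.050 and CREB partners at -0.065. The sizes differ between the lists' genes too, with a median exon length of 3763 bp in the complex core and 8772 bp among the other JmjC enzymes.

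The genes whose log2 CPM was most like that of each member over the 6 libraries were looked up among 12148 genes with a mean log2 CPM over 3. The 3 nearest had Pearson's r between 0.992 and 0.9998, as a description of 6 libraries that share replicates, and none of them was a member. For Kdm6a they were Ppp6c, Mtmr9 and Rgs8, and for Kdm6b they were Usp22, Slc4a8 and Csrnp3. Map2, Hivep2 and Fry were nearest to Kmt2a, Tmem151a, Dhx30 and Ino80 to Kmt2b, BC005561, Gm26954 and Vcpip1 to Kmt2c, and Atp2b1, Camk2d and Tia1 to Kmt2d. Gm26755, Nefm and Chn2 were nearest to Paxip1, Klhl21, Gse1 and Hnrnpul2 to Ncoa6, Gm11973, Cadps and Gnal to Crebbp, and Dst, Apc and Map1b to Ep300.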

How the data were processed

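Per the labels, the libraries were poly-A enriched, and per the paper's methods they were sequenced as paired 150 bp reads. The authors trimmed reads with Trimmomatic 0.38, aligned them with STAR 2.7.2b, ran HTSeq on exons, and deposited its raw counts per gene without normalization. The Gencode release and the strand setting are not given in the sources used here, and the symbols match GENCODE M21. Rows that name no gene held 58.7% to 60.7% of reads and were left out. The row for reads with no feature alone held 45.3% to 46.6% of reads in each library, and the reason was not tested. No library copied another (chi-square per degree of freedom 8.40 or more).

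Counts were tested in R 4.3.3 with edgeR 4.0.16 (TMM, filterByExpr, quasi-likelihood test, no block) and called at a Benjamini-Hochberg adjusted p under 0.05, with DESeq2 1.42.0 as an alternative. The fits were tested on simulated data. Replicate numbers pair the libraries: deviations from group means correlated at 0.586, 0.663 and 0.513 across genes between same-numbered libraries and at 0.0122 or less otherwise. The biological coefficient of variation was 24.0% without and 9.74% with the replicate block. The GC and length correction used 16697 genes. Other alternatives were total-count and upper-quartile scaling, no low-count filter, a minimum of 10 counts per library, an adjusted p under 0.01 and each library or pair left out, and the correction without the block was added after the data were seen. Counting errors of ratios cover counting alone.

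The members and lists were chosen with earlier results of these data known. Genes named are the 10, Ezh1, Ezh2, Uty, Xist, list genes that passed with or without the block, and the 3 genes nearest to each member.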

Additional observations from a re-analysis of the deposited data

How the results depend on the processing

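Without the block, 0 of all tested genes passed (665 at an unadjusted p under 0.05), while DESeq2 called 21 and a fit with no filter on low counts 10. With the replicate block 1412 passed, with the block in DESeq2 951, and with the block and the GC and length correction 1549; leaving out pair 1, 2 or 3 from the block fit gave 1088, 833 and 1277. Of the 10 members, 1 passed with the block and 2 with the block without pair 3, and 0 under each of the other alternatives run. Of the 49 list genes, 2 passed with the block in edgeR and in DESeq2, 3 with the length correction (Kat2b added, named after its values were seen), and 2 (Kdm7a and Kat2b), 2 (Kdm7a and Psip1) and 1 (Kdm7a) without pair 1, 2 or 3.

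Directions turned for some genes and ratios, among them Uty at -0.22 (standard error 0.41) without the block. Kdm6b was at 0.0069 after the length correction with the block and 0.0056 without it, and ranged from -0.14 to 0.035 when 1 library was left out. Such ranges were -0.27 to 0.0068 for Kmt2b, -0.10 to 0.067 for Ezh1, -0.29 to 0.048 for Ezh2 and -0.62 (without GSK-126 replicate 2) to 0.29 (without DMSO replicate 2) for Uty. Ezh1 was at 0.0039 with the block and correction and 0.049 in the block fit without pair 2. The ranges of the ratios were -0.048 to 0.045 for Kmt2d to Kmt2c, -0.0050 to 0.14 for Ep300 to Crebbp and -0.21 to 0.11 for demethylases to Ezh1 and Ezh2. Kdm6b turned without DMSO replicate 2 or GSK-126 replicate 1, and Kmt2b without DMSO replicate 2. The cause was not tested. With the replicate block, sign flips within 3 pairs cannot give a p under 0.25, the value for the demethylase ratio. The other 8 members kept a value below 0 in every fit run. The counting error (standard error) of the group difference of a ratio was 0.041 to 0.056 on the log2 scale, and 0.072 to 0.098 for the difference within 1 pair.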
